A study of Lithobates clamitans with 20 samples.

Results

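Gene expression in the gut was compared between microbially depleted and colonized tadpoles of the green frog, Lithobates clamitans, that had both spent 24 h at 32°C. The members are the 10 libraries whose animal codes begin with D32 (depleted, warm, n = 5) or C32 (colonized, warm, n = 5), out of 20 libraries in the series, with 1 library per tadpole. Depleted tadpoles were raised in autoclaved pond water, whereas the colonized group had unsterilized water of the same pond. In both groups the pond water was mixed with autoclaved laboratory water. In earlier work of the authors, depleted tadpoles carried a less diverse gut microbiome, though they were not germ-free. The other 10 tadpoles were 5 depleted and 5 colonized animals kept at 22°C, and serve here only as the same contrast without heat. All tadpoles descended from a single mating pair and were reared individually at 22°C before the heat treatment, so the groups are siblings of 1 family. Animals of similar size and developmental stage had been selected for sequencing. Each value is the number of reads that the authors assigned to a transcript of the draft genome of a related species, the American bullfrog, and the rows of the table carry gene identifiers and are called genes here. With bulk tissue, a different number of cells of a type and a different amount of RNA per cell cannot be told apart.

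The gut of a tadpole is lined by epithelium that digests food, absorbs nutrients and meets the resident microbes directly. Microbes supply short-chain fatty acids and vitamins, compete with pathogens and shape immune and metabolic gene expression in the gut wall of many vertebrates. In ectotherms, body temperature follows the surroundings, and acute heat is known to induce chaperone genes. The contrast of depleted and colonized tadpoles within the heated animals addresses whether microbial colonization is associated with a different gut transcriptome during heat stress. The gene identifiers of the table are not paired with names or functions in the files used here, so genes are given by identifier, and no heat shock, digestive, immune or cell type marker list could be read, which also means that the tissue was not checked against its markers.

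The sample records are in conflict for the colonized group. By animal code and library title the 5 C32 tadpoles are colonized and warm, but the treatment fields of all 5 call them depleted and cool. The fields of the 5 D32 tadpoles match their codes, whereas those of the 5 D22 tadpoles call them colonized and warm. Groups here follow the codes, which match the ordination published with the study. If the treatment fields were right, the main contrast would be one of warm depleted against cool depleted tadpoles.

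Within the warm tadpoles the libraries held 17557653 to 22922461 counts over 8477 genes (the whole series, 11102195 to 22922461). No difference between warm depleted and warm colonized tadpoles was detected in total counts, the scaling factor, the share of the 10 most abundant genes or the number of genes above 0 (2-sided exact permutation tests over all assignments of 5 and 5 tadpoles, p from 0.437 to 0.627, adjusted over 4 measures 0.627 for each, smallest p possible 0.00794). The 10 most abundant genes took 24.5% ± 1.34 of the counts in depleted tadpoles and 23.5% ± 2.33 in colonized tadpoles (SD, n = 5 each).

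The test did not separate heated depleted and heated colonized tadpoles by their gut transcriptomes as a whole. On Bray–Curtis distances, which run from 0 for identical count profiles to 1 for profiles with nothing in common, colonization accounted for 13.2% of the variation among the 10 warm tadpoles (permutational multivariate analysis of variance, F = 1.22, exact permutation p = 0.270). The group centroids lay 0.112 apart, a gap shorter than the mean distance of 0.139 from a tadpole to its own centroid. A depleted tadpole was on average 0.249 from another depleted tadpole and 0.226 from a colonized tadpole, while colonized tadpoles were 0.189 from each other. Depleted tadpoles were thus farther from one another than from the colonized animals.

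**Figure D1:**
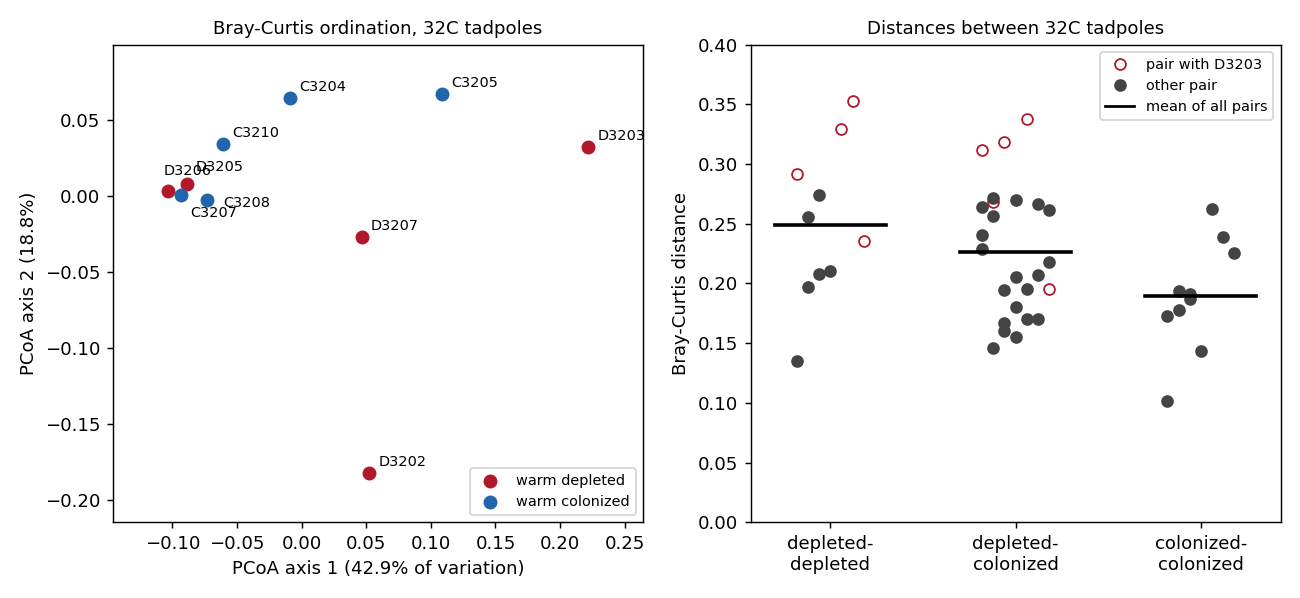
Left, principal coordinates of Bray–Curtis distances among the 10 warm tadpoles (axis 1, 42.9% of variation; axis 2, 18.8%), one point per tadpole. Right, the distance of each pair of warm tadpoles by kind of pair, with pairs that include D3203 as open circles and bars at the mean of all pairs (0.249, 0.226 and 0.189). On the axes drawn, D3205 and D3206 lie close to the colonized C3207 and C3208. By distance, D3206 is 0.218 from C3207 and 0.195 from C3208, but 0.135 from D3205. D3203 and D3202 lie away from these, as, less far, does the colonized C3205.

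A pair of depleted tadpoles stood apart. D3203 had a mean distance of 0.293 to the other 9 warm tadpoles and D3202 one of 0.261, against 0.193 to 0.230 for the other 8. The nearest tadpole to D3203 was a colonized one, C3205, at 0.195, whereas on log2 CPM it was the depleted D3202. D3203 was the highest or the lowest tadpole by at least 2-fold for 385 genes and D3202 for 253, against 43 to 165 in the other 8. D3203 also had the fewest counts of the warm libraries (17557653) and D3202 the most (22922461). With counts as shares of each library, which takes out the totals, the mean distances were 0.268 for D3203 and 0.259 for D3202, against 0.188 to 0.227 for the other 8. On Euclidean distances of log2 CPM they were 210 for D3203 and 201 for D3202, against 186 to 198. Without D3203 the mean distance between depleted tadpoles was 0.213 and that between depleted and colonized tadpoles 0.211. The same analysis of variance gave F = 1.44 without D3203 (exact permutation p = 0.151), F = 0.976 without D3202 (p = 0.405) and F = 1.29 without both (p = 0.286).

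Depleted tadpoles were more scattered than colonized tadpoles by value, but the main test of this did not pass. The distance to the own group centroid was 0.158 ± 0.0435 in depleted tadpoles and 0.121 ± 0.0243 in colonized tadpoles (SD, n = 5 each, difference 0.0365, permutation p = 0.135). The permutations shuffled these distances without placing the centroids anew, so the p-values of this test are approximate. The single values were 0.166, 0.220, 0.141, 0.161 and 0.0998 in D3202, D3203, D3205, D3206 and D3207, against 0.0971, 0.162, 0.120, 0.112 and 0.113 in C3204, C3205, C3207, C3208 and C3210. The groups overlapped, since D3207 was closer to its centroid than 4 of the 5 colonized tadpoles. The difference was 0.0107 without D3203 (permutation p = 0.500) and turned to -0.0167 without D3202 and D3203 together (permutation p = 0.375). It was 0.0485 without D3207 (permutation p = 0.0397) and 0.0542 without C3205 (permutation p = 0.0476). On Euclidean distances of log2 CPM the difference also passed (permutation p = 0.0476). The outcome of this test therefore depended on single tadpoles and on the distance used. Tadpoles of a smaller group lie closer to their own centroid, which lowers the values of a group with tadpoles left out. No correction was made for this. Gene by gene, the SD of log2 CPM (CPM, counts relative to library size, scaled between libraries) was higher in depleted than in colonized tadpoles for 5028 of the 8477 genes (59.3%), and for 50.4% of genes when D3203 was left out.

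No gene passed the test between warm depleted and warm colonized tadpoles. The edgeR quasi-likelihood test with Benjamini–Hochberg adjustment called 0 of 8477 genes (0%) at an adjusted p under 0.05, and the smallest adjusted p was 0.641. An unadjusted p under 0.05 was found for 623 genes, of which 323 (3.81% of all genes) were higher in depleted tadpoles and 300 (3.54%) were lower. At a p under 0.01 there were 69 of the 8477 genes, and at a p under 0.001 there were 2, AB205_0048270 and AB205_0079240. The counts at 0.01 and at 0.001 are below the share that the threshold itself would give if no gene differed. The 623 genes under 0.05 (7.35% of all genes) are above that share. Genes are not independent, and neither departure was tested. The count of 0 was the same without D3203, without D3202 and without both. Normalized values of the 5 depleted and 5 colonized tadpoles did not overlap for 127 genes, 59 of them higher in depleted tadpoles (0.696% of all genes) and 68 lower (0.802%), and 102 of these had an unadjusted p under 0.05. Without D3203, 327 of the 8477 genes did not overlap, 214 higher and 113 lower. Part of this rise comes with leaving out any tadpole, since fewer tadpoles make overlap rarer. Without any other warm tadpole the count was 164 to 240. With scaling by total counts, 103 genes did not overlap, 68 higher and 35 lower.

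Most fold changes were small, and the intervals say how much remains unresolved. The median absolute log2 fold change (depleted over colonized) was 0.29 and its median SE 0.33. For 3877 genes (45.7%) the 95% interval lay within a 2-fold change in either direction, so that a larger difference falls outside their interval. For the other genes a change of 2-fold or more could not be set aside at this sample size. Fold changes beyond 2-fold were estimated for 926 genes (10.9%). Precision was lowest for the least abundant genes. The interval lay within 2-fold for 26.3% of the 2698 genes under 5 CPM, for 51.9% of those at 5 to 20 CPM, for 59.4% of those at 20 to 100 CPM and for 53.2% of the 993 genes at 100 CPM or more.

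The genes described next were named by a rule: the smallest unadjusted p, in each direction, among the genes without overlap. None of them passed the edgeR quasi-likelihood test, with an adjusted p of 0.641 for each. DESeq2 called all 4, and AB205_0074130 also passed the edgeR exact test (adjusted p = 0.0274) and likelihood ratio test (adjusted p = 0.0175). Values are given as normalized CPM in the order D3202, D3203, D3205, D3206, D3207 for depleted and C3204, C3205, C3207, C3208, C3210 for colonized tadpoles, and they can be compared between tadpoles but not between genes, as no gene lengths were used.

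AB205_0074130 had 407, 103, 36.0, 50.1 and 75.2 CPM in warm depleted tadpoles, against 13.3, 17.1, 19.7, 4.15 and 13.2 CPM in warm colonized tadpoles. Every depleted tadpole was above every colonized one, and D3202 was far above the other 4 depleted tadpoles. The log2 fold change was 3.31 ± 0.75 (SE), and 2.31 without D3202. AB205_0044610 had 1.96, 3.24, 3.22, 2.66 and 1.90 CPM in depleted tadpoles, against 0.834, 0.792, 0.568, 1.37 and 0.731 CPM in colonized tadpoles. The groups were apart with no lone tadpole in either, at a low level, and the log2 fold change was 1.59 ± 0.35 (SE).

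Lower in depleted tadpoles was AB205_0048270, with 9.62, 9.37, 8.05, 9.78 and 9.39 CPM, against 13.5, 18.0, 14.9, 12.8 and 19.2 CPM in colonized tadpoles. It had the smallest unadjusted p of the comparison (0.000602), the depleted tadpoles were within 1.73 CPM of each other, and the log2 fold change was -0.76 ± 0.15 (SE). AB205_0103770 had 65.9, 38.6, 38.2, 56.0 and 82.6 CPM in depleted tadpoles, against 100, 119, 202, 172 and 104 CPM in colonized tadpoles, a log2 fold change of -1.31 ± 0.30 (SE). Its highest depleted tadpole, D3207, was below the lowest colonized tadpole, C3204. AB205_0079240, picked out after its value was seen because it was the other gene with p under 0.001, had 9.34, 10.2, 5.94, 3.97 and 11.3 CPM in depleted tadpoles, against 10.9, 33.5, 31.7, 40.3 and 27.9 CPM in colonized tadpoles. Here the groups overlapped through C3204 alone, and the log2 fold change was -1.82.

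**Figure D2:**
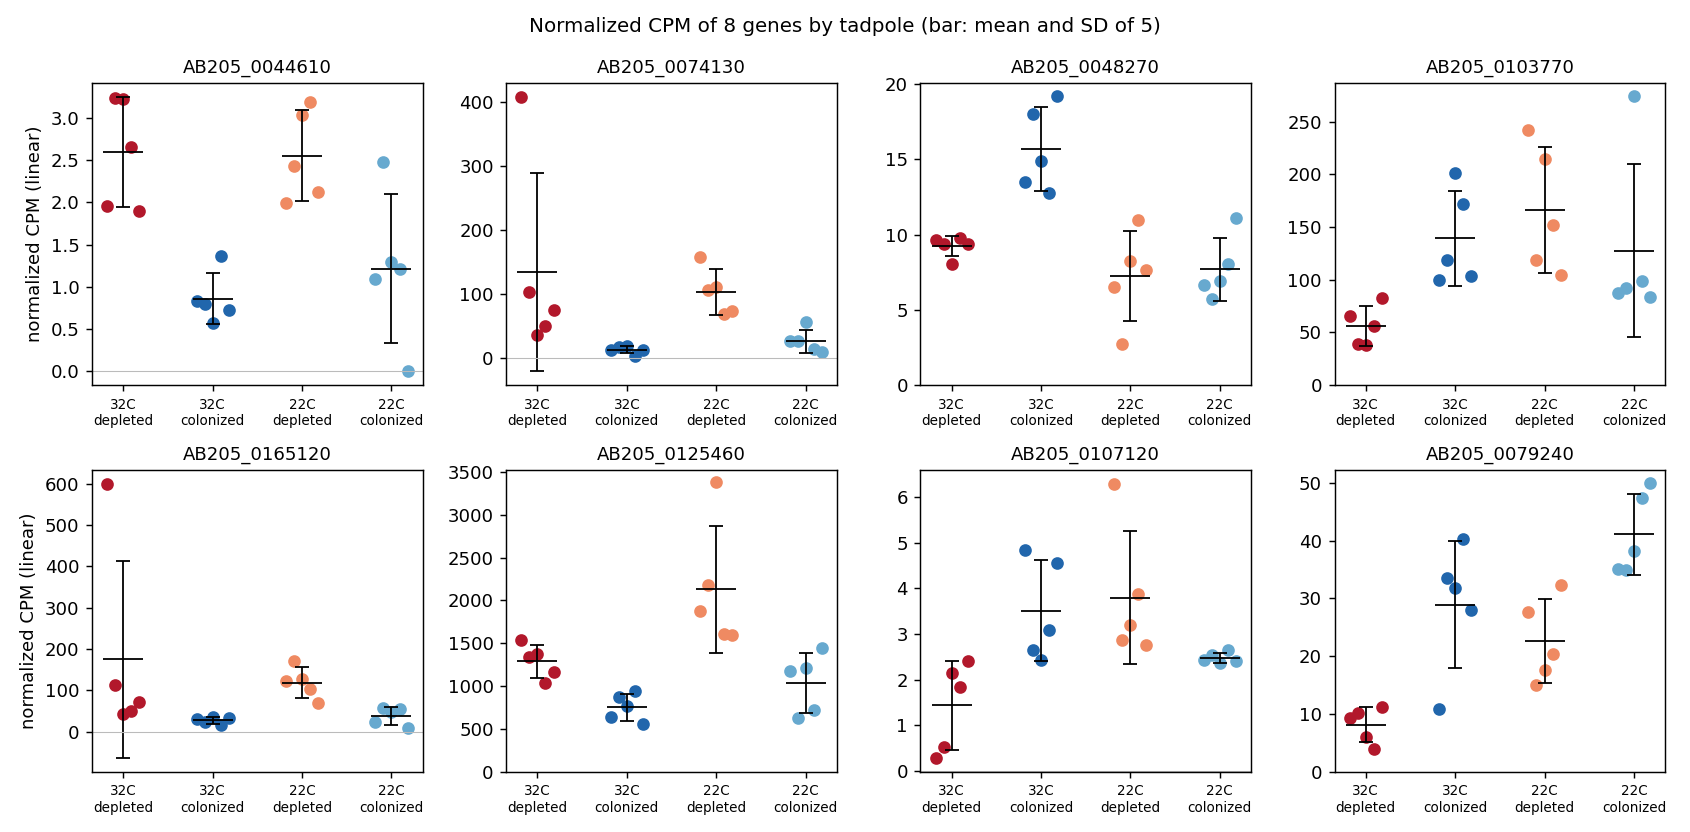
Normalized CPM of 8 genes, one point per tadpole, with bars at the mean and SD of 5 tadpoles, on linear axes, for warm depleted, warm colonized, cool depleted and cool colonized tadpoles. CPM were scaled within each temperature. The upper row holds the 4 genes named by the rule at 32°C, and the lower row 3 further genes without overlap at both temperatures and AB205_0079240.

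The largest differences in normalized CPM lay in abundant genes, and none of these passed the quasi-likelihood test either. AB205_0182740 averaged 18931 ± 9878 CPM in depleted and 10527 ± 4381 CPM in colonized tadpoles (SD, n = 5 each). It had 26745, 26620, 9838, 6590 and 24861 CPM in depleted tadpoles, against 7627, 16020, 10292, 13551 and 5144 CPM in colonized tadpoles, so that 3 depleted tadpoles were above all colonized ones and the other 2 were within their range (edgeR adjusted p = 0.678). AB205_0000019 had 28265, 6301, 2742, 4598 and 5064 CPM in depleted tadpoles, against 3524, 5356, 3331, 3874 and 3349 CPM in colonized tadpoles. Its difference rested on D3202, and its log2 fold change of 1.27 ± 0.60 (SE) was 0.28 without that tadpole.

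Among the abundant genes with lower values in depleted tadpoles, AB205_0169310 had 0, 11162, 11607, 13051 and 9661 CPM in depleted tadpoles, against 14593, 15435, 23099, 17439 and 17680 CPM in colonized tadpoles. The groups did not overlap, although D3202 held not a single count of a gene with 193019 to 447247 counts in the other 9. Its log2 fold change was -0.96 ± 1.46 (SE), and -0.62 without D3202. AB205_0148810 had 2652, 1665, 3491, 149 and 1389 CPM in depleted tadpoles, against 622, 2996, 21946, 22595 and 579 CPM in colonized tadpoles. C3207 and C3208, which were also the closest pair of all warm tadpoles (Bray–Curtis distance 0.101), carried the difference, and the other 3 colonized tadpoles were within the range of the depleted tadpoles. The 10 genes that contributed most to the Bray–Curtis distance between the groups made up 20.0% of it and 20.7% of all counts, and 1 of them, AB205_0169310, was without overlap.

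Counts of 0 in a gene that was plentiful in another tadpole were common. Of the 8477 genes, 6887 had counts in all 10 warm tadpoles, 1554 were at 0 in some and 36 were at 0 in all. There were 1161 genes (13.7%) at 0 in at least 1 warm tadpole and at 100 counts or more in another, called on-off genes below. Of these, 834 were at 0 in tadpoles of both groups, 236 in depleted tadpoles only and 91 in colonized tadpoles only. Over all genes, more depleted than colonized tadpoles were at 0 for 746 genes, and more colonized than depleted tadpoles for 482. Of 962 genes with a median of at least 100 CPM, 72 were at 0 in 1 or more tadpoles. AB205_0084960, for example, was at 0 in D3205, D3207 and C3205 and had 68636 to 154629 counts in the other 7, and AB205_0030510 was at 0 in D3206 and had 91092 to 185393 counts in the other 9. These examples were chosen after their values were seen.

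D3203 and D3202 held the most genes at 0, with 1002 and 910, against 535 to 614 in the other 3 depleted tadpoles and 490 to 810 in the colonized tadpoles. D3203 alone was at 0 for 134 genes and D3202 alone for 77, against 4 to 42 in each of the other 8. A count of 0 allows up to 3 counts in a library, which was 0.143 CPM on average in depleted and 0.141 CPM in colonized tadpoles, and covers counting error only. Whether a 0 in the table is a lack of reads in the library or arose when the counts of the libraries were made and joined cannot be told from the table. The fold bounds given next hold only where a 0 is a true count.

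Of the 8477 genes, 171 were at 0 in all 5 depleted tadpoles and 117 in all 5 colonized tadpoles, with the 36 at 0 in all 10 counted in both. No gene was at 0 in all tadpoles of one warm group and above 0 in all of the other. At 0 in all 5 depleted tadpoles and above 0 in 4 of 5 colonized tadpoles were 4 genes, and 3 genes had the reverse pattern (all 7 were picked out after their values were seen). AB205_0046840 had 0 counts in each depleted tadpole, against 0, 1053, 1166, 1102 and 1502 counts in colonized tadpoles, at least 320-fold lower in depleted tadpoles by group means with the floor of 3 counts per library. C3204 was the colonized tadpole without it. AB205_0000260 had 0 counts in each depleted tadpole, against 384, 0, 497, 625 and 444 counts in colonized tadpoles, at least 130-fold lower. Here the colonized tadpole at 0 was C3205. AB205_0026990 had 0 counts in each depleted tadpole, against 217, 191, 263, 0 and 268 counts in colonized tadpoles, at least 60.7-fold lower. AB205_0089550 had 0 counts in each depleted tadpole, against 28, 0, 49, 30 and 59 counts in colonized tadpoles, at least 10.9-fold lower. The missing colonized tadpole was thus C3204 once, C3208 once and C3205 for both others.

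In the reverse direction, AB205_0098250 had 109, 100, 210, 0 and 138 counts in depleted tadpoles, against 0 counts in each colonized tadpole, at least 37.5-fold higher in depleted tadpoles. It was also at 0 in all 10 cool tadpoles, so it met the filter of 2 CPM in 3 libraries through the warm depleted tadpoles alone. AB205_0147250 had 0, 49, 120, 115 and 125 counts in depleted tadpoles, against 0 counts in each colonized tadpole, at least 25.3-fold higher. It was present in 1 of 5 cool depleted tadpoles and 4 of 5 cool colonized tadpoles. AB205_0031470 had 42, 46, 3, 0 and 149 counts in depleted tadpoles, against 0 counts in each colonized tadpole, at least 16.3-fold higher. In the cool tadpoles it was at 0 in all 5 depleted animals and present in 4 of 5 colonized animals. None of the 7 genes was called by the edgeR quasi-likelihood test (adjusted p = 0.641 for each). AB205_0000260 and AB205_0026990 met the filter only through the warm colonized tadpoles, as too few cool tadpoles had counts. These genes and AB205_0098250 are in the table only because of the group where they are high. Their fold bounds therefore give no separate support for a difference. The same holds for calls of these genes by another tool or with a tadpole left out, given below.

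How many genes were called depended on the tool, and more so than on any tadpole. Besides the 0 genes of the quasi-likelihood test, limma voom with sample quality weights called 0 (607 genes at an unadjusted p under 0.05). The edgeR exact test called 7, the edgeR likelihood ratio test 8 and DESeq2 139, of which 66 were higher in depleted tadpoles and 73 lower. Of the 139 DESeq2 genes, 79 were on-off genes, 36 were without overlap, and in 62 a single tadpole held over 50% of the CPM of the higher group. Among all 8477 genes, 1161 (13.7%) were on-off genes and 127 were without overlap. How many of all genes had such a single tadpole was not counted. DESeq2 gave missing values for 287 genes. The 8 genes of the likelihood ratio test were AB205_0074130 and the 7 genes given above, at 0 in a whole group and above 0 in 4 tadpoles of the other. With the 1161 on-off genes left out, a choice made after seeing the data, DESeq2 called 13 genes, the edgeR exact and likelihood ratio tests 4 each, and the quasi-likelihood test and limma voom 0. The 4 genes named by the rule at 32°C were among the genes that DESeq2 called in either case. The biological coefficient of variation, the spread between tadpoles beyond counting error, was 0.873 over all genes and 0.459 without on-off genes.

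**Figure D3:**
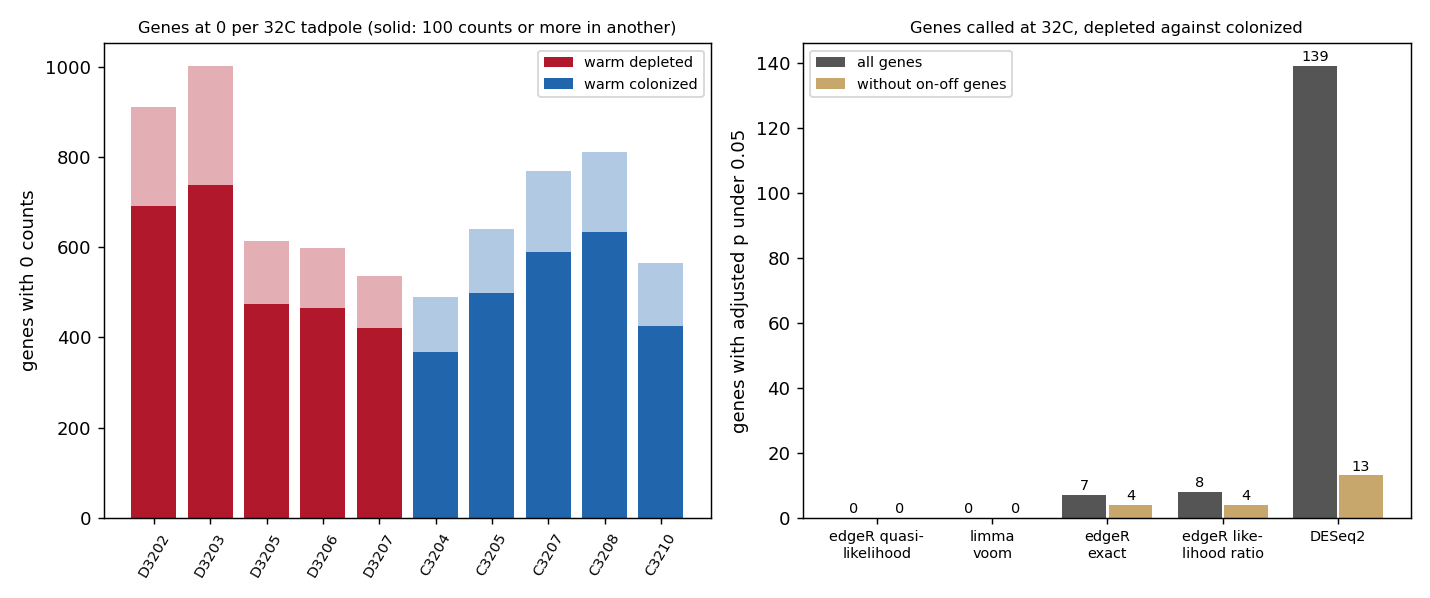
Left, the number of genes with 0 counts in each warm tadpole (pale and solid parts together) and the part of them with at least 100 counts in another warm tadpole (solid), highest in D3203 (1002) and D3202 (910). Right, genes with an adjusted p under 0.05 between warm depleted and warm colonized tadpoles by tool, over all genes and without on-off genes, with DESeq2 at 139 and 13 and the quasi-likelihood test at 0 for both.

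Leaving out 1 tadpole gave at most 1 called gene in the edgeR quasi-likelihood test. Without C3204, C3205 or C3208, the gene called was AB205_0046840 (adjusted p = 0.00293), AB205_0000260 (adjusted p = 0.0303) or AB205_0026990 (adjusted p = 0.0301), in each case the gene at 0 in all depleted tadpoles for which the tadpole left out was the 1 colonized animal at 0. Without C3210 it was AB205_0101220 (edgeR adjusted p = 0.000885), with 416 to 721 counts in depleted tadpoles, against 531 counts in C3210 and 0 in the other 4 colonized tadpoles. These 4 calls therefore each needed the removal of the tadpole that went against the other 4 of its group. AB205_0000260 and AB205_0026990 also met the filter only through the warm colonized tadpoles, so their calls give no separate support for a difference. Leaving out any of the other 6 tadpoles gave 0 called genes.

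The same contrast was then set beside that of the cool tadpoles, which share no animal with it. At 22°C depleted and colonized tadpoles were separated on Bray–Curtis distances (F = 3.32, 29.3% of variation, exact permutation p = 0.0159), with centroids 0.212 apart, but the call was lost on CPM in place of counts (F = 2.39, exact permutation p = 0.0556). The edgeR quasi-likelihood test called 0 genes (0%) with a smallest adjusted p of 0.0783, and 995 genes had an unadjusted p under 0.05, 413 higher in depleted tadpoles (4.87% of all genes) and 582 lower (6.87%). Without overlap were 118 genes higher (1.39%) and 125 lower (1.47%). DESeq2 called 350 genes, the edgeR likelihood ratio test 127, the exact test 95 and limma voom 17. The difference between the temperatures in the effect of colonization was tested directly by the interaction. The permutational analysis of variance over all 20 tadpoles gave an interaction of colonization and temperature with F = 3.30, 12.6% of variation and p = 0.008 (999 permutations). Its distances used counts not scaled for library size, and the interaction was not repeated on CPM. Grouping by the treatment fields gave the same interaction (F = 3.30), because it exchanges the factors of a balanced design. For single genes, the edgeR quasi-likelihood test of the interaction called 0 genes (0%, smallest adjusted p 0.207) with 1097 (12.9%) at an unadjusted p under 0.05, while DESeq2 called 435, the likelihood ratio test 24 and limma voom 0.

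Fold changes at 32°C and at 22°C had little linear relation and more often opposite than like signs. Across the 8477 genes, which are not independent replicates, the correlation of the log2 fold changes was 0.0053 (Pearson) and -0.10 (Spearman), and 43.7% of genes had the same sign at both temperatures. The share was 38.4% for the 623 genes with an unadjusted p under 0.05 at 32°C (Spearman correlation -0.04). For the 127 without overlap there it was 32.3% (Spearman correlation -0.11). For genes picked at 22°C it was nearer to that of all genes or above it. It was 42.6% for the 995 with such a p (Spearman correlation -0.03) and 49.4% for the 243 without overlap (Spearman correlation 0.12). The Pearson correlation went the other way, with 0.09 for the 623 genes and -0.13 for the 995. Over the 5779 genes with a mean of at least 5 CPM the Spearman correlation was -0.14. The median absolute log2 fold change was 0.29 at 32°C and 0.34 at 22°C. Of the 623 genes with an unadjusted p under 0.05 at 32°C, 74 also had one at 22°C, 31 of them in the same direction. The 74 make up 11.9% of the 623, where 11.7% of all genes had such a p at 22°C, and 7.44% of the 995, where 7.35% of all genes had one at 32°C.

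**Figure D4:**
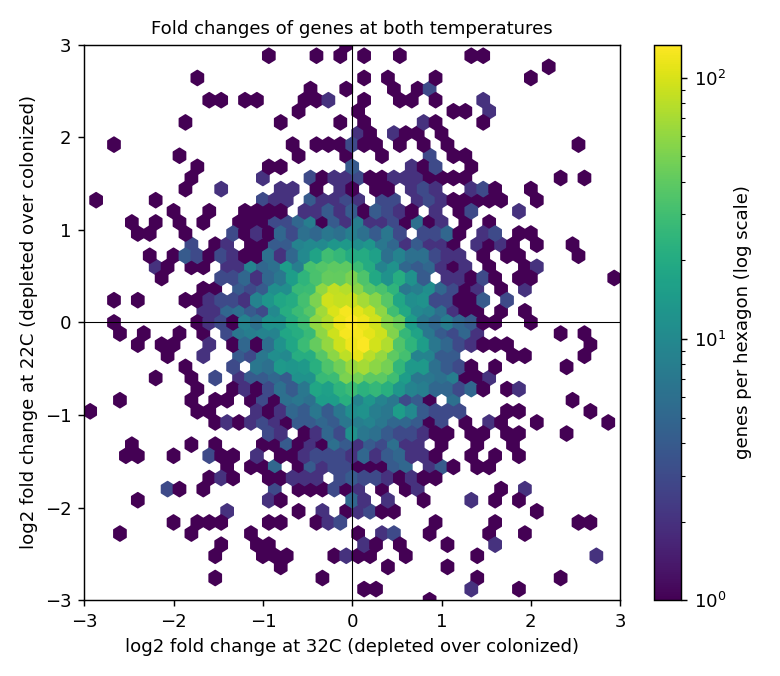
Log2 fold change of depleted over colonized tadpoles at 32°C (horizontal axis) and at 22°C (vertical axis), as genes per hexagon on a log color scale, with 429 of the 8477 genes beyond the axis limits of 3 not drawn. The cloud is centered on 0 with no diagonal trend.

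A set of 4 genes was without overlap at both temperatures, 3 of them in the same direction (all named after their values were seen). These were 4 of the 127 genes without overlap at 32°C. Of all genes, 1.39% were without overlap and higher at 22°C, and 1.47% lower. The 4 are thus near the share of all genes, and their number is no sign of a difference common to both temperatures. AB205_0074130, given above, averaged 104 ± 35.5 CPM in cool depleted and 26.8 ± 17.9 CPM in cool colonized tadpoles (SD, n = 5 each). AB205_0165120 had 599, 113, 42.1, 49.7 and 72.2 CPM in warm depleted tadpoles, against 30.8, 23.6, 36.9, 16.1 and 34.5 CPM in warm colonized tadpoles. As for AB205_0074130, D3202 was the highest, and the other depleted tadpoles were above all colonized ones. At 22°C it averaged 119 ± 37.3 CPM in depleted and 38.8 ± 21.4 CPM in colonized tadpoles (SD, n = 5 each).

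AB205_0125460 had 1536, 1345, 1370, 1035 and 1169 CPM in warm depleted tadpoles, against 645, 869, 762, 943 and 554 CPM in warm colonized tadpoles, a log2 fold change of 0.77. No tadpole stood out in either group. At 22°C it averaged 2129 ± 738 CPM in depleted and 1037 ± 350 CPM in colonized tadpoles (SD, n = 5 each), a log2 fold change of 1.04. The fourth gene, AB205_0107120, went in opposite directions, with 0.280, 0.520, 2.15, 1.84 and 2.41 CPM in warm depleted tadpoles, against 4.83, 2.66, 2.43, 3.08 and 4.56 CPM in warm colonized tadpoles. At 22°C it averaged 3.79 ± 1.46 CPM in depleted and 2.47 ± 0.11 CPM in colonized tadpoles (SD, n = 5 each).

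The genes with the smallest interaction p in each direction also failed the edgeR quasi-likelihood test (adjusted p from 0.207 to 0.212), and 3 of the 4 were at 0 in a whole group. DESeq2 called all 4, and the edgeR likelihood ratio test called those 3, AB205_0165640 (adjusted p = 0.000565), AB205_0142100 (adjusted p = 5.37e-06) and AB205_0046840 (adjusted p = 8.29e-10). AB205_0028510 was the exception, with 70.8, 66.4, 50.6, 53.7 and 56.9 CPM in warm depleted tadpoles, against 49.0, 53.8, 45.6, 41.5 and 47.6 CPM in warm colonized tadpoles. At 32°C 3 depleted tadpoles were above all colonized ones. In cool tadpoles the values were 31.7 ± 5.41 CPM in depleted and 47.2 ± 5.77 CPM in colonized animals (SD, n = 5 each), without overlap and in the other direction, and the log2 difference of the fold changes was 0.89 ± 0.19 (SE).

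AB205_0046840, at 0 in all warm depleted tadpoles as given above, was at 0 in all 5 cool colonized tadpoles too and had 965, 952, 513, 0 and 725 counts in cool depleted tadpoles, at least 214-fold higher in cool depleted than in cool colonized tadpoles. It was thus found in 4 of 5 tadpoles in each of the groups whose codes and treatment fields are in conflict, and in 0 of the 10 others. The gene was named for its small interaction p, and the interaction sets these same groups against the others. The pattern therefore follows from the choice of gene and does not bear on which labels are right. AB205_0142100 had 1.01, 1.91, 1.61, 2.62 and 2.07 CPM in warm depleted tadpoles, against 3.55, 2.05, 2.27, 2.07 and 2.97 CPM in warm colonized tadpoles, and was at 0 in all cool colonized tadpoles while 4 of 5 cool depleted tadpoles had 1.20 to 4.04 CPM. AB205_0165640 had 0, 2.26, 2.31, 1.88 and 2.50 CPM in warm depleted tadpoles, against 3.42, 2.14, 1.24, 1.42 and 2.67 CPM in warm colonized tadpoles, and was at 0 in all cool depleted tadpoles with 0.778 to 1.43 CPM in cool colonized tadpoles. The warm groups overlapped for both genes.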

How the data were processed

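Gut RNA of each tadpole was sequenced as 1 library (TruSeq, paired-end NovaSeq). The authors used Trim Galore for trimming, BWA for mapping to the bullfrog draft genome and StringTie for counts per transcript, and removed transcripts at low abundance (versions are not given in the sources used here). The deposited values are whole-number read counts, not normalized, in rows that carry gene identifiers. Each of the 8477 genes reaches 2 CPM in 3 or more libraries. Genes that share reads with a close copy could not be identified. Whether counting used strand is not stated in the sources used here.

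Groups follow the animal codes. The contrast, the gene lists and the tests were chosen with earlier results of these data known, and the lists could not be used without gene names. Differential expression was fitted on the counts with edgeR 4.0.16 (TMM scaling, quasi-likelihood test, Benjamini–Hochberg adjustment over all genes, adjusted p under 0.05) in R 4.3.3, within each temperature, with all 4 groups for the interaction. The study names edgeR but not which of its tests was used. The SE of a log2 fold change is its size divided by the root of F. P-values from separate tadpoles of 1 family measure the spread within that family. Bray–Curtis distances used the counts, and permutational multivariate analysis of variance over 10 tadpoles all assignments to 5 and 5 (over 20 tadpoles, vegan 2.7.1 with 999 permutations). Named genes were, per direction, the 2 with the smallest p among genes without overlap, the 2 with the largest CPM difference, and the 2 with the smallest interaction p. Alternatives were DESeq2 1.42.0, limma 3.58.1 (voom with sample quality weights), and edgeR's exact, likelihood ratio and newer quasi-likelihood tests. Further alternatives were other scalings, filters, distances and thresholds, a replicate block, and leaving out tadpoles or on-off genes. The scripts were tested on simulated data. Animal numbers are shared by the warm groups for 2 numbers only (5 and 7), and their deviations correlated at -0.12 and -0.03. These are too few to decide whether the numbers pair tadpoles, and the main tests did not treat them as pairs.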

Additional observations from a re-analysis of the deposited data

Results flagged for a closer look

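Among 42 groups of 5 values examined for a lone tadpole, 7 held one whose gap to the next, divided by the range of the group, was above the 95% limit of Dixon's test, where chance gives about 1 in 20 among groups not chosen by their values. Most of these groups belong to genes chosen for a large difference or a small p, to which that rate does not apply. In warm depleted tadpoles, D3202 was alone in 4 of them: high for AB205_0074130 (407 CPM, ratio 0.819) and AB205_0000019 (28265 CPM, ratio 0.861), and at 0 for AB205_0169310 (ratio 0.740) and AB205_0165640 (ratio 0.753). D3205 was the low one for AB205_0048270 (8.05 CPM, ratio 0.761). In warm colonized tadpoles, C3205 was high for AB205_0000019 (5356 CPM, ratio 0.732) and C3204 was at 0 for AB205_0046840 (ratio 0.759).

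By the interaction term of the permutational analysis of variance, the effect of colonization on the whole transcriptome differed between 32°C and 22°C (F = 3.30, p = 0.008 over 999 permutations). The distances used counts not scaled for library size, and the term was not repeated on CPM. No single gene passed edgeR's quasi-likelihood test of the interaction (0 called, 1097 with p under 0.05 before adjustment, 435 called by DESeq2). Codes and treatment fields are in conflict for 10 of the 20 tadpoles. Grouping by the fields only exchanges the factors of a balanced design, so the interaction term had to be the same by either (F = 3.30). It does not tell which labels are right.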

How the results depend on the processing

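At 32°C the count of 0 called genes by the edgeR quasi-likelihood test was the same under every scaling, filter and threshold tried and with the newer quasi-likelihood method, and with limma voom. It was 139 with DESeq2, 8 with edgeR's likelihood ratio test, 7 with its exact test and 13 with DESeq2 without on-off genes (added after seeing the data). Leaving out 1 tadpole gave 0 to 1. With animal number as a replicate block, 0 genes were called. Only D3205, D3207, C3205 and C3207 share a number with a tadpole of the other group. That fit therefore compares these tadpoles alone, could hardly call a gene, and bears little on the count of 0. Scaling by total counts moved the share of genes higher in depleted tadpoles among those with p under 0.05 to 67.8%, against 51.8%. The F of the permutational analysis of variance at 32°C stayed between 0.916 and 1.53 over all alternatives, none with p under 0.05.

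The spread difference was 9.87 in log2 CPM units with Euclidean distances of log2 CPM (permutation p = 0.0476, approximate as given above). It was 0.0107 to 0.0542 with 1 tadpole left out, and -0.0167 without D3202 and D3203, not corrected for the smaller group. Genes without overlap numbered 103 with total-count scaling (68 higher, 35 lower) and 164 to 327 with 1 tadpole left out, where fewer tadpoles make overlap rarer. The log2 fold change of AB205_0000019 turned to -0.18 with the replicate block. That fit compares D3205 and D3207 (2742 and 5064 CPM) with C3205 and C3207 (5356 and 3331 CPM). D3202 (28265 CPM) has an animal number of its own and does not enter the contrast.

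At 22°C the calls were 350 with DESeq2, 95 with the exact test, 127 with the likelihood ratio test, 17 with limma voom, 22 with the newer quasi-likelihood method, 5 with all 4 groups in one fit, 23 at an adjusted p under 0.1, 17 without on-off genes, 250 with DESeq2 without on-off genes, and 0 to 5 with 1 tadpole left out. The analysis of variance at 22°C gave F = 2.39 on CPM (exact permutation p = 0.0556). Interaction calls were 435 with DESeq2, 24 with the likelihood ratio test and 0 to 4 with 1 tadpole left out. Total-count scaling shifted the median log2 fold change at 22°C to -0.47, against -0.05, leaving 8.12% of genes with p under 0.05 higher in depleted tadpoles, against 41.5%, and for the interaction 91.1%, against 55.2%. At 32°C 26.3% of the intervals of genes under 5 CPM lay within 2-fold, and 53.2% of those of genes at 100 CPM or more.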
